A study of Mus musculus with 54 samples.

Results

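The 9 genes described are part of the Wnt pathway: the TCF/LEF factor genes Lef1 and Tcf7, the feedback inhibitor genes Axin2, Nkd1, Notum, Dkk1, Rnf43 and Znrf3, and the target gene Sp5. They were taken by symbol from the table of raw counts, and each of the 9 symbols matched 1 of the 55401 rows. The libraries come from mouse embryonic stem cells with altered EZH2, the catalytic subunit of PRC2, a complex that marks histone H3 with methyl groups and keeps developmental genes silent. Of the 8 lines, 5 expressed an EZH2 variant: A677T, R679C, K634E and K563E, taken here as the Weaver syndrome variants, and A733T, taken as the growth restriction variant; the labels do not say which is which, and this split rests on general knowledge. A further line expressed EZH2-WT (WT), and the study describes all 6 as made in Ezh2 fl/Δ heterozygote cells, in which 1 allele is floxed and the other deleted. The other lines were the heterozygote itself without added EZH2 (het) and a line labelled parental, whose library names read flfl. Each line was sequenced 3 times after 2i and LIF were withdrawn and all-trans retinoic acid was given for a short time (ATRA) and 3 times undifferentiated with 2i and LIF (mESC), which makes 48 libraries in 16 groups. The labels give neither the promoter that drove the added EZH2, nor the number of clones per line, nor the length and dose of the treatment.

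Wnt proteins bind Frizzled receptors and LRP co-receptors, which stops the destruction complex from degrading beta-catenin, and beta-catenin then activates genes together with TCF/LEF factors. Many of those genes encode inhibitors of the pathway, so that signalling limits itself. Mouse stem cells grown in 2i receive an inhibitor of the kinase GSK3, a part of the destruction complex, and beta-catenin is therefore high in such cultures. Withdrawal of 2i and LIF came together with retinoic acid here, so their effects cannot be told apart. Below, a change with or after retinoic acid means the difference between ATRA and mESC.

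Libraries held 15361598 to 31338825 counts. Mitochondrial genes took 2.703% of counts in A677T replicate 3 of mESC and 2.77% in K634E replicate 3 of ATRA, the highest shares of their states. Each gene's log level relative to its mean over the libraries of the state was correlated with its GC content. These libraries also had the lowest such correlations (Spearman's rho across genes -0.66 and -0.69), which are thus relative to the other libraries of the state. In mESC the 12 libraries of the 4 Weaver variants ranged from -0.66 to 0.06 in this correlation and the 3 WT libraries from 0.443 to 0.645, so GC content moved with that comparison and a GC-corrected fit is given where it changed a call. Ezh2 averaged 440 ± 23.0 CPM (counts scaled to the library total) in WT and 280 ± 3.86 in het mESC (SD, n = 3 each), with a log2 fold change of 0.65 ± 0.07 (adjusted p = 2.11e-07 by edgeR). It averaged 360 ± 16.6 CPM in A733T mESC, with a log2 fold change over WT of -0.26 ± 0.07 (adjusted p = 0.00676). In mESC it averaged 568 ± 53.2 CPM in A677T, 495 ± 25.8 in R679C, 545 ± 45.4 in K634E and 524 ± 24.7 in K563E. The mean of these 4 over WT was 0.29 ± 0.05 in mESC (0.000112) and 0.18 ± 0.05 in ATRA (0.00422). Of the 4, R679C was not called in ATRA (0.09 ± 0.06, 0.359). A733T was at -0.40 ± 0.06 over WT in ATRA (1.47e-05). The part of these Ezh2 levels in the members' changes was not tested. The part of Ezh2 that is deleted is not stated, so its count does not test the deletion. The summed level of 8 pluripotency markers was 493 to 909 CPM in ATRA libraries and 4140 to 5306 in mESC libraries, and that of 6 retinoic acid response markers 616 to 994 CPM in ATRA and 2.675 to 8.595 in mESC. Feeder fibroblast markers summed to at most 13.7 CPM in any library. Nothing in the labels says that replicates were separate cultures, so the p-values measure the spread between these libraries, which may be technical. In bulk samples, fewer cells expressing a gene and less RNA per cell cannot be told apart.

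Upstream sequences were available for 7 of the 9 genes, from RefSeq on GRCm38.p6, and those of Sp5, Dkk1 and Axin2 are shown as examples. Capitals mark matches to a TCF/LEF motif, with the letters CTTTGAA or CTTTGAT, and also CTTTGTT or CTTTGTA, searched on both strands in the 250 bases before each start.
Sp5, chr2:70474673-70474922, plus strand: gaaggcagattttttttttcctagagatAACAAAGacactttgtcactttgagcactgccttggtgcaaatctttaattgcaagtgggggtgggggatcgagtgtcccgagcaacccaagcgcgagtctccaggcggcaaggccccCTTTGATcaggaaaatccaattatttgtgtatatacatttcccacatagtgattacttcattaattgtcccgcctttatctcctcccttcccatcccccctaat
Dkk1, chr19:30549588-30549613, minus strand: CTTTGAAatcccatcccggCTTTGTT
Axin2, chr11:108920099-108920348, plus strand: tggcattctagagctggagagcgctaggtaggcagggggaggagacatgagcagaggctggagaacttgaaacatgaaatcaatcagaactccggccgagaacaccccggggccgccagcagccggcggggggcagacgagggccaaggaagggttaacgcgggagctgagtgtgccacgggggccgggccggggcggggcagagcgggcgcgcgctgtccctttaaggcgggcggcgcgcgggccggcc
The Sp5 window held 2 matches, at 222 to 216 bases before the start on the minus strand and at 104 to 98 bases on the plus strand. The Dkk1 window also held 2, at 117 to 111 and 98 to 92 bases before the RefSeq start, and only the stretch that spans them is printed. The GENCODE M21 annotation starts Dkk1 at base 30549665, so these matches lie inside the gene as placed there. The Axin2 window held none, and it was rich in CpG, with 24 against a median of 6 over all windows. Of all 32851 windows of this length, 14.84% held at least 1 match and 1.43% held 2 or more. Of the other genes, 1 of the 4 start sites of Lef1 had a match, and the windows of Tcf7, Nkd1 and Rnf43 had none. At all 4 Lef1 starts, the Nkd1 start and 1 Tcf7 start, the bases just after the RefSeq start matched no GENCODE transcript of the gene. A match describes letters in a window and says nothing of binding.

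In the WT line, levels per length differed widely between the 9 genes. In undifferentiated WT cells Tcf7 was at 66.7 ± 1.51 TPM (counts scaled to length and library total), Notum at 46.6 ± 1.21, Axin2 at 22.1 ± 1.07, Sp5 at 17.7 ± 1.28 and Znrf3 at 11.2 ± 0.328 TPM (SD, n = 3). Lef1 was at 2.56 ± 0.291 TPM there, Nkd1 at 1.40 ± 0.317, Rnf43 at 0.531 ± 0.118 and Dkk1 at 0.325 ± 0.127 TPM. Between mESC and ATRA, 8 of the 9 changed in WT, 3 upward and 5 downward. Of the 17683 genes tested, 59% were called, 29.8% upward and 29.2% downward. Dkk1, Lef1 and Nkd1 rose, and Sp5, Notum, Rnf43, Axin2 and Tcf7 fell, by edgeR's quasi-likelihood test with Benjamini-Hochberg adjustment over all genes at a threshold of 0.05. The secreted inhibitors and the target factor changed most, with log2 fold changes of 4.44 ± 0.33 for Dkk1, -5.02 ± 0.31 for Sp5 and -3.54 ± 0.15 for Notum (SE). Dkk1 passed the low-count filter only through ATRA libraries and Sp5 only through mESC libraries. Their calls therefore partly follow from the filter and are given as a description. On the low side there were 15 Dkk1 reads in the 3 WT mESC libraries and 24 Sp5 reads in the 3 WT ATRA libraries. The other values were 1.94 ± 0.10 for Lef1, 1.39 ± 0.23 for Nkd1, -1.11 ± 0.34 for Rnf43, -0.63 ± 0.11 for Axin2 and -0.21 ± 0.06 for Tcf7, with adjusted p from 1.08e-21 for Lef1 to 0.00552 for Tcf7. Znrf3 was not called, at 28.0 ± 1.45 CPM in ATRA and 28.8 ± 1.15 CPM in mESC. The Tcf7 call was lost without ATRA WT replicate 1 (adjusted p = 0.0756) and without replicate 3 (0.0548), and the Rnf43 call without ATRA WT replicate 3 (0.0627).

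**Figure D1:**
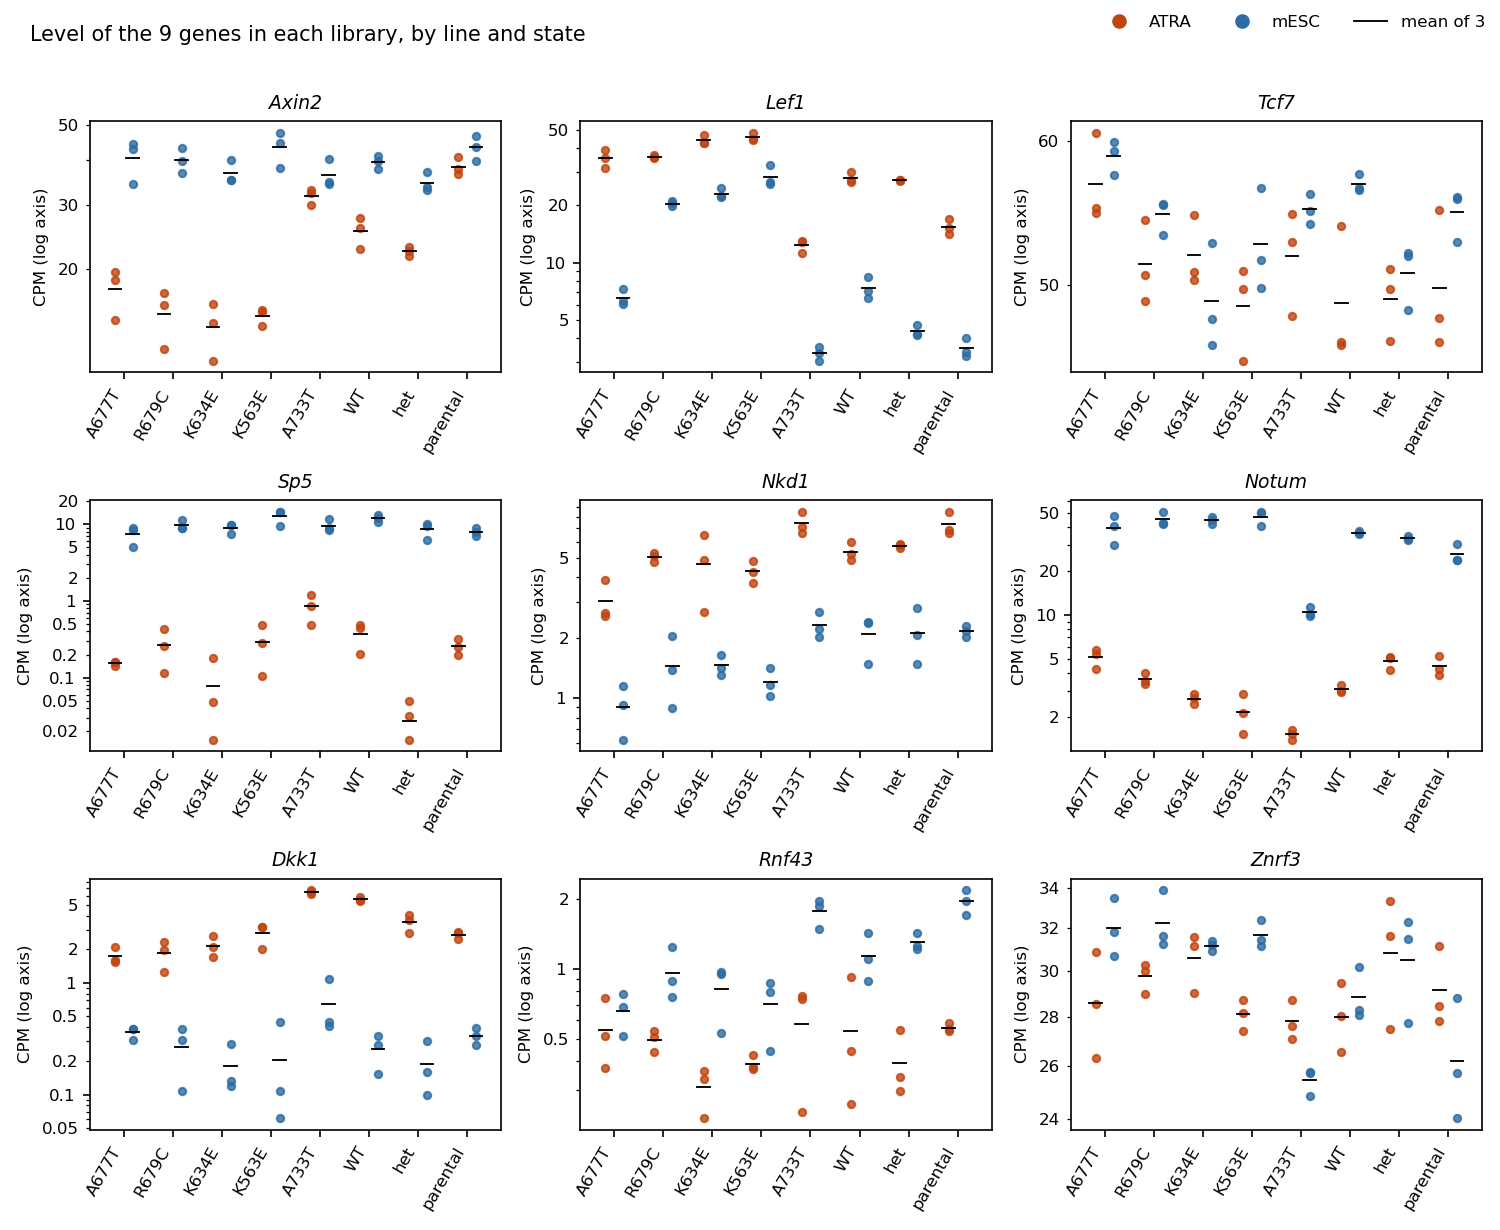
Level of each of the 9 genes in every library, in CPM on a log axis, by line, with ATRA libraries left of mESC libraries; bars mark means of 3 libraries, and 2 Sp5 libraries with 0 counts (1 each of K634E and het in ATRA) are drawn at the bottom of the axis. Lef1 in mESC separates R679C, K634E and K563E from the other lines, and Axin2 and Dkk1 in ATRA are lower in all 4 Weaver variants than in WT.

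Between lines, fewer members changed. The mean of the 4 Weaver variants differed from WT in 4 of 8 tested members in mESC, 3 higher (Lef1, Notum and Znrf3) and 1 lower (Nkd1), where 44.4% of 15830 genes were called, 21.4% higher and 22.9% lower. In ATRA it differed in 3 of 8, 1 higher (Lef1) and 2 lower (Axin2 and Dkk1), where 20.5% of 17030 genes were called, 8.43% higher and 12.1% lower. The members' share in mESC was thus near the background. Taken singly in mESC, the variants differed from WT in 2 members for A677T (background 44.6%), 1 for R679C (23.7%), 2 for K634E (29.3%) and 3 for K563E (34.5%). After GC correction these counts were 6 for A677T (Axin2, Tcf7, Notum and Znrf3 higher, Lef1 and Nkd1 lower; background 37.7%), 3 for R679C (22.5%), 2 for K634E (18.5%) and 4 for K563E (32.9%), and 5 for the mean of the 4 (36.5%). In ATRA they differed in 6 members for A677T (background 19.4%), 3 for R679C (10.3%), 3 for K634E (15%) and 4 for K563E (20.5%). A733T differed from WT in 2 of 8 in mESC (Lef1 and Notum, both lower; background 19.3%) and in 3 of 8 in ATRA (Lef1 and Notum lower, Axin2 higher; background 17.7%). WT differed from het in 1 of 8 in mESC (Lef1 higher; background 12.1%) and in 2 of 8 in ATRA (Dkk1 higher, Notum lower; background 16.4%). The het line differed from parental in 2 of 8 in ATRA (Lef1 higher, Axin2 lower; background 6.25%). In mESC it differed in none of 8 (background 3.44%) by edgeR, where DESeq2 called 1 (Axin2), and 4 of the 8 had an unadjusted p under 0.05. Dkk1 was too low to be tested in mESC alone and Sp5 too low in ATRA alone. These comparisons share libraries: every variant was set against the same WT libraries, and WT against the same het libraries.

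**Figure D2:**
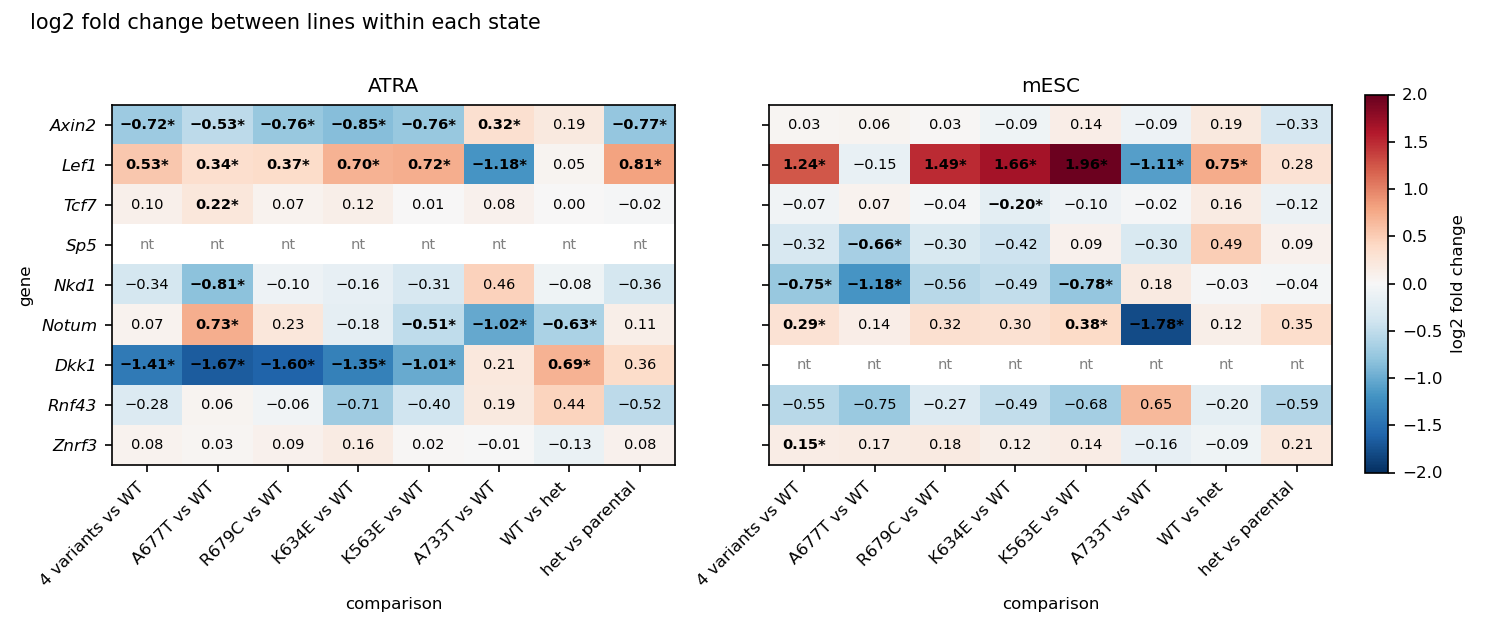
Heat map of log2 fold changes of the 9 genes (rows) for 8 comparisons of lines (columns) in ATRA and in mESC; red is higher in the line named before vs, asterisks and bold mark an adjusted p under 0.05, and nt marks genes too low to be tested. Lef1 in mESC runs from -1.11 in A733T to 1.96 in K563E relative to WT, and Dkk1 in ATRA is between -1.67 and -1.01 in the 4 Weaver variants.

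Lef1, whose product binds DNA and recruits beta-catenin, was the member that differed most between lines in mESC, 8.49-fold between the means of K563E and A733T. In mESC it was at 20.5, 20.98 and 19.7 CPM in R679C, 22.1, 22.4 and 24.6 in K634E, and 26.5, 25.8 and 32.5 in K563E. A677T had 6.03, 6.31 and 7.25 CPM, A733T 3.04, 3.60 and 3.36, and WT 8.37, 7.06 and 6.53. The het line had 4.67, 4.18 and 4.21 CPM and parental 3.39, 3.22 and 4.02. All 9 libraries of R679C, K634E and K563E lay above every WT library, whereas A677T overlapped WT and A733T lay below it. Over WT, the log2 fold change was 1.49 ± 0.11 in R679C (adjusted p = 2.92e-10), 1.66 ± 0.11 in K634E (1.73e-10) and 1.96 ± 0.11 in K563E (7.14e-13), all by edgeR. In A677T it was -0.15 ± 0.12 (adjusted p = 0.344), and -0.29 with an adjusted p of 0.0416 after GC correction. The mean over the 4 variants, 1.24 ± 0.10 (adjusted p = 1.09e-10), therefore joined 3 high lines and 1 that did not differ from WT by this test. A direct comparison of A677T with the mean of the other 3 variants gave -1.85 ± 0.10 (adjusted p = 8.37e-13; 2 of 8 members called; background 15.3%). That comparison was added after these values were seen and is a description of them. In A733T the log2 fold change over WT was -1.11 ± 0.13 (adjusted p = 1.2e-06), in WT over het 0.75 ± 0.13 (0.000196), and in het over parental 0.28 ± 0.14 (0.403). In order of level the neighbours WT and A677T overlapped, as did parental and A733T, and no other neighbours did.

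After retinoic acid Lef1 was higher in every line and the lines lay closer together, 3.70-fold between the means of K563E and A733T. It was at 38.9, 31.5 and 35.5 CPM in A677T, 35.8, 35.5 and 36.7 in R679C, 42.5, 42.6 and 46.9 in K634E, and 44.6, 44.1 and 48.1 in K563E. A733T had 11.2, 12.97 and 12.8 CPM, and WT 27.1, 26.6 and 29.8. In het it was at 27.2, 26.8 and 27.2 CPM and in parental 16.9, 15.2 and 14.1. All 12 libraries of the 4 Weaver variants lay above the WT libraries, A677T included, and A733T lay below every other line. Over WT the log2 fold changes were 0.34 ± 0.09 in A677T (adjusted p = 0.00587), 0.37 ± 0.09 in R679C (0.00592), 0.70 ± 0.09 in K634E (3.3e-06) and 0.72 ± 0.09 in K563E (8.2e-07). The A677T call was lost without A677T replicate 1 (adjusted p = 0.0576). The mean over the 4 was 0.53 ± 0.07 (adjusted p = 2.84e-06). A733T was at -1.18 ± 0.09 over WT (1.03e-09), het at 0.81 ± 0.09 over parental (4.81e-07), and WT at 0.05 ± 0.09 over het (0.745), which turned to -0.015 without ATRA WT replicate 3. The difference between states was itself tested as an interaction, the effect in ATRA minus that in mESC. For the mean of the 4 variants over WT it was -0.68 ± 0.11 (adjusted p = 2.82e-05). Axin2 was the other of 2 of 9 members called (background 7.07%). In R679C, K634E and K563E the excess over WT was smaller in ATRA than in mESC. A677T went the other way, not above WT in mESC and 0.34 ± 0.09 above it in ATRA. The interaction was not tested for single Weaver variants. For WT over het the interaction was -0.70 ± 0.15 (adjusted p = 0.00331), with Notum the other of 2 of 9 members called (background 2.25%). This Lef1 call was lost without mESC WT replicate 1 (0.0503). A small antisense gene, Gm43352, covers 13.7% of the Lef1 exon bases, and it averaged at most 0.513 CPM in any group.

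Tcf7, which encodes the TCF1 factor, stayed at nearly the same level throughout. Over the 24 ATRA libraries it ranged from 45.4 to 60.7 CPM with a median of 50.8, and over the 24 mESC libraries from 46.3 to 59.97 with a median of 55.1. Line means differed by at most 1.17-fold in ATRA and 1.20-fold in mESC. In mESC, K634E had 52.7, 47.9 and 46.3 CPM and WT 57.6, 56.4 and 56.5, a log2 fold change of -0.20 ± 0.06 (adjusted p = 0.0196) that was no longer called after GC correction (-0.12, adjusted p = 0.148), nor without the low-count filter (0.104), WT replicate 1 (0.0546), K634E replicate 2 (0.0866) or K634E replicate 3 (0.0556). In ATRA, A677T had 55.1, 60.7 and 54.8 CPM and WT 46.5, 53.9 and 46.3, at 0.22 ± 0.07 (adjusted p = 0.0252). That call was lost without the low-count filter (0.101) and without WT replicate 1 (0.120), WT replicate 3 (0.0962) or A677T replicate 2 (0.134). The mean of the 4 variants in ATRA was 0.10 ± 0.06 over WT (adjusted p = 0.199), and 0.13 with an adjusted p of 0.0316 after GC correction. The correction also called Tcf7 higher in A677T over WT in mESC (0.18, adjusted p = 0.00868), in WT over het in mESC (0.16, 0.0407), in K634E over WT in ATRA (0.19, 0.0242), in A677T over the other 3 variants in ATRA (0.14, 0.0375) and with retinoic acid in K634E (0.21, 0.00111).

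The other genes of the TCF/LEF family, Tcf7l1 and Tcf7l2, were read alongside. Tcf7l1, which encodes mainly a repressor in stem cells, was not called between the 4 variants and WT in either state, with log2 fold changes of -0.07 ± 0.06 in mESC (adjusted p = 0.327) and 0.09 ± 0.05 in ATRA (0.204). After GC correction it was called higher in both, at 0.23 in mESC (adjusted p = 0.0148), where the direction turned, and at 0.21 in ATRA (0.00348). Tcf7l2, encoding TCF4, averaged 17.0 ± 4.06 CPM in A677T, 14.5 ± 2.23 in R679C, 12.7 ± 1.25 in K634E and 14.7 ± 1.79 in K563E mESC, against 10.96 ± 0.539 in WT. It averaged 7.52 ± 1.53 CPM in A733T. In ATRA it averaged 31.9 ± 1.25, 31.5 ± 1.70, 28.9 ± 2.31 and 33.7 ± 4.74 CPM in the same 4 variants and 14.6 ± 1.11 in A733T, against 19.5 ± 1.34 in WT. The 4 Weaver variants were thus above WT in both states and A733T below it. The log2 fold change of the 4 variants over WT was 0.43 ± 0.12 in mESC (adjusted p = 0.00546) and 0.70 ± 0.09 in ATRA (2.03e-06), and that of A733T -0.51 ± 0.16 in mESC (0.0241) and -0.43 ± 0.12 in ATRA (0.00995). The A733T calls were lost without mESC WT replicate 2 (adjusted p = 0.0749), mESC WT replicate 3 (0.0701) or mESC A733T replicate 1 (0.171), and without ATRA WT replicate 3 (0.0669) or ATRA A733T replicate 2 (0.0704).

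Axin2, the scaffold of the destruction complex that Wnt signalling induces, differed less between lines in mESC than in ATRA. In mESC its line means lay between 34.6 ± 2.17 CPM in het and 43.4 ± 4.87 in K563E (SD, n = 3), 1.25-fold apart, and every pair of neighbours in the order overlapped. The 4 variants ranged from 34.4 to 47.6 CPM with a median of 40.004, and the WT libraries were at 41.2, 39.9 and 37.8. Their log2 fold change was 0.03 ± 0.08 (adjusted p = 0.753), but it was 0.19 with an adjusted p of 0.00995 after GC correction, which also called A677T (0.25, 0.00751) and K563E (0.28, 0.00286) higher than WT. The het line, with 37.1, 33.7 and 33.1 CPM, lay below parental, with 46.7, 43.6 and 39.8, at a log2 fold change of -0.33 ± 0.10 (adjusted p = 0.0639). That value was called without the low-count filter (0.0419), by DESeq2 (0.0366), with a replicate block (0.0102) and after GC correction (-0.32, 0.00415).

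In ATRA, A677T had 19.7, 18.6 and 14.5 CPM of Axin2, R679C 17.1, 15.9 and 12.1, K634E 16.1, 14.2 and 11.2, and K563E 15.2, 15.4 and 13.96. A733T had 32.4, 33.1 and 30.05 CPM, and WT 26.1, 27.6 and 22.8. The het line had 23.1, 22.5 and 21.7 CPM and parental 40.7, 37.9 and 36.5. All 12 libraries of the Weaver variants lay below every library of the other lines, the 3 A733T libraries lay above WT, and parental lay highest. The log2 fold change over WT was -0.53 ± 0.11 in A677T (adjusted p = 0.00075), -0.76 ± 0.11 in R679C (2.39e-05), -0.85 ± 0.11 in K634E (6.5e-06) and -0.76 ± 0.11 in K563E (1.31e-05), with a mean of -0.72 ± 0.08 (2.33e-07). A733T was at 0.32 ± 0.11 over WT (adjusted p = 0.0352), a call lost when WT replicate 1 (0.0688) or 3 (0.167) or A733T replicate 1 (0.0883), 2 (0.125) or 3 (0.0662) was left out. The het line was at -0.77 ± 0.10 over parental (8.94e-06), and WT at 0.19 ± 0.11 over het (0.230), or 0.23 with an adjusted p of 0.0359 after GC correction. Parental and A733T, A733T and WT, and het and A677T did not overlap as neighbours in this order, while WT overlapped het and the 4 variants overlapped each other. After GC correction A677T was called above the mean of the other 3 variants (0.24, adjusted p = 0.0162). The interaction with state was -0.73 ± 0.12 for the 4 variants over WT (adjusted p = 4.1e-05). For A733T over WT it was 0.44 ± 0.15 (adjusted p = 0.110; 0 of 9 members called by edgeR, 1 by DESeq2, and 4 of 9 at an unadjusted p under 0.05; background 3.17%), and 0.36 with an adjusted p of 0.0383 after GC correction. For het over parental it was -0.44 ± 0.15 (adjusted p = 0.282; 0 of 9 members called by edgeR, 0 by DESeq2 and 3 of 9 at an unadjusted p under 0.05; background 0.73%), and it was called after GC correction (-0.44, adjusted p = 0.0191).

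Between mESC and ATRA, 6 of 9 members changed in A677T, K563E, A733T and parental and 7 in R679C, K634E and het. The shares of all genes called in these lines were 55.3%, 57.8%, 55.8%, 55.2%, 57.5%, 57.4% and 56.8%, in that order. The counts include Dkk1 and Sp5 in every line, which passed the filter only through the state where they were high. Axin2 was lower in ATRA in all 4 Weaver variants. Its log2 fold changes were -1.17 ± 0.11 in A677T, -1.39 ± 0.11 in R679C, -1.36 ± 0.11 in K634E and -1.49 ± 0.11 in K563E. It was at -0.19 ± 0.11 in A733T (adjusted p = 0.128), -0.63 ± 0.11 in WT, -0.62 ± 0.11 in het and -0.18 ± 0.10 in parental (0.134). In parental, same-numbered libraries of the states deviated together. A replicate block, which was shared by all lines, called Axin2 (-0.18, adjusted p = 0.0307) and Tcf7 (-0.15, 0.0320) lower in ATRA there. In A733T the block also called Axin2 lower (-0.19, adjusted p = 0.0269 by edgeR). The lowest correlation of same-numbered libraries of the states was 0.099 there, just under the cut-off of 0.1. The tests of differences between lines are the interactions above. Lef1 rose in every line, with log2 fold changes of 2.47 ± 0.10 in A677T, 0.84 ± 0.09 in R679C, 0.99 ± 0.09 in K634E, 0.74 ± 0.09 in K563E, 1.89 ± 0.12 in A733T, 1.94 ± 0.10 in WT, 2.64 ± 0.11 in het and 2.11 ± 0.12 in parental. The smallest increases were in the 3 lines whose Lef1 was highest before treatment. Across the 24 ATRA libraries Axin2 and Lef1 had a Pearson correlation of -0.90 on the log scale, given as a description, since the libraries fall into 8 lines and share their normalisation; in mESC it was 0.16.

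Nkd1, which encodes a Dishevelled-binding inhibitor, was a low-level gene that rose in all 8 lines with retinoic acid, by log2 fold changes from 1.39 in WT to 1.89 in R679C and K563E. In mESC it was at 0.622, 0.922 and 1.16 CPM in A677T, 2.04, 0.896 and 1.39 in R679C, 1.65, 1.42 and 1.31 in K634E and 1.41, 1.16 and 1.03 in K563E. WT had 2.38, 1.48 and 2.38 CPM. Of the 12 variant libraries, 10 lay below every WT library, and the rest overlapped. The mean over the 4 variants was -0.75 ± 0.22 over WT (adjusted p = 0.00685), a call lost without WT replicate 1 (0.0589) or 3 (0.0562). A677T was at -1.18 ± 0.31 (adjusted p = 0.00296) and K563E at -0.78 ± 0.29 (0.0397). The K563E call was lost after GC correction (-0.68, adjusted p = 0.0707) and by DESeq2 (0.0650), and without WT replicate 1 (0.128) or 3 (0.128) or K563E replicate 2 (0.0894) or 3 (0.135). The 4 variants summed to 276 Nkd1 reads in 12 libraries of mESC, with 121 in the 3 WT libraries, which limits the precision.

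In ATRA, Nkd1 was at 2.56, 3.87 and 2.67 CPM in A677T, against 5.23, 5.98 and 4.90 in WT, and these groups did not overlap. The log2 fold change of A677T over WT was -0.81 ± 0.20 (adjusted p = 0.00402), and against the mean of the other 3 variants it was -0.62 ± 0.17 (0.0137; 3 of 8 members called; background 12.5%), a call lost without A677T replicate 1 (0.122) or 3 (0.0850). The mean over the 4 variants was -0.34 ± 0.15 over WT (adjusted p = 0.101) and was called only without K634E replicate 2 (-0.43, 0.0198) or A677T replicate 2 (-0.40, 0.0499) and with a replicate block. A733T had 8.50, 7.13 and 6.64 CPM, all above WT, at 0.46 ± 0.18 (adjusted p = 0.0801), and 0.45 with an adjusted p of 0.0326 after GC correction. Same-numbered libraries of A733T and WT deviated together in ATRA. With a replicate block, which was shared by all lines, the adjusted p was 0.0269.

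Notum, which encodes a secreted enzyme that removes the lipid from Wnt proteins, was the member with the largest difference between A733T and WT in mESC. In mESC it was at 10.1, 11.3 and 9.77 CPM in A733T, against 36.3, 35.6 and 37.4 in WT, 0.291-fold by the fit. Both groups were tight and far apart, with a log2 fold change of -1.78 ± 0.14 (adjusted p = 6.9e-10). The het line had 32.5, 32.9 and 34.9 CPM and parental 30.7, 23.8 and 23.7, so A733T was lowest of the 8 lines and overlapped none. The Weaver variants ranged from 29.9 to 51.1 CPM with a median of 43.5, and 11 of 12 libraries lay above WT, the exception being A677T replicate 3. Their mean was 0.29 ± 0.10 over WT (adjusted p = 0.0210), and 0.58 after GC correction (2.25e-10). The uncorrected call was lost without WT replicate 1 (0.0675), 2 (0.0732) or 3 (0.0641), R679C replicate 1 (0.0512) or K634E replicate 1 (0.0506). Among the single variants, K563E was called at 0.38 ± 0.12 (adjusted p = 0.0191), and not without WT replicate 2 (0.0536) or K563E replicate 1 (0.0761) or 2 (0.0702). After GC correction A677T (0.48, adjusted p = 7.97e-07), R679C (0.55, 1.29e-07) and K634E (0.64, 1.31e-08) were called higher as well. R679C and K634E were also called without the low-count filter (0.0136 and 0.0210) and with a replicate block (0.0369 and 0.0393). The het line was at 0.35 ± 0.13 over parental (adjusted p = 0.161), and 0.36 with an adjusted p of 0.000742 after GC correction.

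Notum was lower in ATRA than in mESC in all 8 lines, and the order of the lines changed. In ATRA, A677T had 5.71, 5.41 and 4.27 CPM, R679C 3.37, 3.98 and 3.49, K634E 2.43, 2.88 and 2.68, and K563E 2.85, 2.13 and 1.53. A733T had 1.40, 1.53 and 1.63 CPM, and WT 2.97, 3.29 and 3.02. In het it was at 5.10, 4.21 and 5.17 CPM and in parental 5.21, 4.25 and 3.86. All libraries of A677T and R679C lay above WT, and those of K634E and K563E below it. A677T was at 0.73 ± 0.16 over WT (adjusted p = 0.00186) and at 0.88 ± 0.13 over the mean of the other 3 variants (2.35e-05). K563E was at -0.51 ± 0.18 over WT (0.0482), a call lost after GC correction (-0.34, adjusted p = 0.184), with other size factors (0.0530), without the low-count filter (0.137), by DESeq2 (0.0857) and without any of WT replicates 1 (0.0757), 2 (0.141) and 3 (0.0795) or K563E replicates 2 (0.115) and 3 (0.296). A733T was at -1.02 ± 0.19 over WT (0.000436) and WT at -0.63 ± 0.16 over het (0.00757). The interaction was 0.78 ± 0.26 for A733T over WT (adjusted p = 0.0934), and 0.62 with an adjusted p of 0.0462 after GC correction. For WT over het it was -0.75 ± 0.21 (0.0396), and 11 of the 12 libraries each ended that call when left out, with adjusted p from 0.0614 without mESC WT replicate 2 to 0.113 without ATRA WT replicate 1; the exception was ATRA het replicate 2.

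Antisense genes cover 38.1% of the Notum exon bases, and the use of strand in counting is not given in the sources used here, so reads over that part cannot be told apart from those of its antisense partners. The larger partner, Notumos, averaged 1.53 ± 0.271 CPM in A733T and 6.12 ± 0.74 in WT mESC, a log2 fold change of -1.97 ± 0.23 (adjusted p = 6.62e-07). Its level was also lower in ATRA than in mESC in WT (-4.18 ± 0.32, adjusted p = 1.7e-15). Notum and Notumos were thus lower in the same groups.

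Dkk1, which encodes a secreted inhibitor of the LRP co-receptors, was near absent in mESC, with 0.0614 to 1.09 CPM over the 24 libraries, and rose in all 8 lines with retinoic acid. In ATRA it was at 1.55, 2.10 and 1.6001 CPM in A677T, 2.30, 1.97 and 1.26 in R679C, 2.62, 2.11 and 1.71 in K634E and 3.15, 3.13 and 2.01 in K563E. A733T had 6.74, 6.46 and 6.27 CPM, and WT 5.88, 5.54 and 5.42. The het line had 3.67, 2.80 and 4.03 CPM and parental 2.88, 2.80 and 2.44. All 12 Weaver variant libraries lay below WT. The A733T libraries lay above WT, at a log2 fold change of 0.21 ± 0.17 that was not called (adjusted p = 0.436). The log2 fold change over WT was -1.67 ± 0.19 in A677T (adjusted p = 2.78e-07), -1.596 ± 0.19 in R679C (1.17e-06), -1.35 ± 0.19 in K634E (1.3e-05) and -1.01 ± 0.18 in K563E (0.000188). The mean of -1.41 ± 0.14 (1.13e-08) stood at 0.377-fold of WT. The call held at each alternative setting and with each library left out in turn. WT was itself at 0.69 ± 0.17 over het (0.00524), and among the variants K563E and K634E overlapped parental. The interaction of the 4 variants over WT was -1.30 ± 0.46 (adjusted p = 0.0780) on few mESC reads, 15 in all 3 WT libraries, and it was called only without mESC R679C replicate 2 (0.0398) or mESC K563E replicate 1 (0.0491).

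Several marker lists differed between lines in ATRA. The summed level of 6 endoderm markers was 77.7 to 108 CPM in the Weaver variants, 157 to 169 in A733T and 168 to 177 in WT, with 103 to 119 in het and 106 to 124 in parental. Among the Weaver variants it was highest in A677T, at 101 to 108 CPM. Of the 6, 5 averaged at least 1 CPM in A677T and in K634E, and all 6 did in each other line. In A733T, trophoblast markers summed to 66.05 to 76.3 CPM, against 37.8 to 43.8 in WT. Of the 6, 5 averaged at least 1 CPM in A733T and 3 in WT, and they include Cdx2, given below among the Wnt-responsive genes. In mESC this list summed to 44.5 to 51.8 CPM in A733T, 59.9 to 63.8 in WT and 60.5 to 85.4 in the Weaver variants. Retinoic acid response markers summed in ATRA to 934 to 994 CPM in A733T, against 716 to 841 in WT. Neural markers summed to 203.5 to 225 CPM in A733T, against 168 to 181 in WT. They were at 204 to 222 in K563E and 194 to 208 in R679C, and at 138 to 154 in A677T and 153 to 191 in K634E. Of the 6 neural markers, 5 averaged at least 1 CPM in A733T ATRA and 4 in each other line named. Pluripotency markers summed to 493 to 782 CPM in the Weaver variants and 671 to 701 in WT. In mESC they summed to 4140 to 4711 in the Weaver variants, 4839 to 4947 in A733T and 5029 to 5163 in WT, and the summed level of 7 primitive streak and mesoderm markers was 56.3 to 82.6, 24.3 to 27.2 and 48.8 to 53.2 CPM in the same groups. Of these 7, only 2 averaged at least 1 CPM over the Weaver variants and 3 in A733T and in WT, so the sums stand for few genes. The part of the marker levels in the changes of Dkk1, Lef1, Axin2 and Notum was not tested.

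Sp5, a zinc finger factor induced by Wnt, was expressed in mESC and close to absent after retinoic acid. In mESC it was at 8.52, 8.83 and 5.07 CPM in A677T, 11.4, 8.93 and 8.93 in R679C, 9.90, 7.39 and 9.70 in K634E, and 14.7, 14.3 and 9.49 in K563E. A733T had 8.42, 11.6 and 8.89 CPM, and WT 13.3, 10.8 and 12.2. The het line had 9.97, 9.63 and 6.24 CPM and parental 8.83, 7.09 and 8.03. By this test A677T alone differed from WT, at -0.66 ± 0.20 (adjusted p = 0.0107), and this call was lost after GC correction (-0.26, adjusted p = 0.151) and without A677T replicate 3 (0.0633), the library that stood apart. After GC correction K563E was called higher than WT (0.40, adjusted p = 0.0168) and A677T lower than the mean of the other 3 variants (-0.38, 0.0218). The mean over the 4 variants was -0.32 ± 0.15 (adjusted p = 0.0883) and turned to 0.03 after GC correction, and it was called without the low-count filter (0.0103), with a replicate block (0.0428), without R679C replicate 1 (0.0448) or without A677T replicate 2 (0.0425). WT was at 0.49 ± 0.20 over het (0.110), and 0.41 with an adjusted p of 0.0282 after GC correction. In ATRA the 24 libraries had a median of 0.198 CPM and at most 1.21, and 2 of them had no Sp5 read. The 3 A733T libraries held 50 reads together, those of WT 24 and those of het 2. The A733T libraries were at 0.486, 0.852 and 1.21 CPM and those of WT at 0.486, 0.201 and 0.437, so that 2 A733T libraries lay above WT and the lowest was level with the highest WT library. The interaction was 1.56 ± 0.49 for A733T over WT (adjusted p = 0.0732), and it was called by DESeq2 (0.0243), without the filter (0.0101), after GC correction (1.36, 0.0423) and without mESC A733T replicate 2 (0.0486) or ATRA A733T replicate 1 (0.0365). It was -0.71 ± 0.50 for the 4 variants (0.427). After GC correction it was called for WT over het (3.13, adjusted p = 0.0106) and for het over parental (-3.08, 0.0401), both of which rest on the 2 ATRA reads of het.

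Rnf43 and Znrf3 encode related membrane ubiquitin ligases that remove Frizzled receptors. Rnf43 was low, with line means from 0.310 ± 0.0722 CPM in K634E to 0.581 ± 0.293 in A733T after retinoic acid, and from 0.658 ± 0.134 in A677T to 1.95 ± 0.235 in parental mESC. In mESC the 4 variants had 0.442 to 1.24 CPM with a median of 0.788, and WT had 1.42, 1.10 and 0.886. The groups overlapped, and the log2 fold change was -0.55 ± 0.23 (adjusted p = 0.0549), and -0.35 with an adjusted p of 0.263 after GC correction. It was called with a replicate block, and when any of mESC WT replicate 3, R679C replicate 1, K634E replicate 1 or 3, K563E replicate 1 or 3, or A677T replicate 2 was left out, with adjusted p from 0.0286 without R679C replicate 1 to 0.0480 without K563E replicate 1. A733T mESC had 1.95, 1.48 and 1.86 CPM, all above WT, at 0.65 ± 0.27 (adjusted p = 0.0891), and 0.73 with an adjusted p of 0.0467 after GC correction. Rnf43 was lower in ATRA than in mESC in 6 of 8 lines by this test. A677T (-0.26 ± 0.38, adjusted p = 0.582) and K563E (-0.79 ± 0.40, 0.0873) were not called. K563E was called without mESC K563E replicate 2 (0.0389). The R679C call (-0.88 ± 0.35, adjusted p = 0.0289) was lost without the low-count filter (0.0900), by DESeq2 (0.0693), and without mESC R679C replicate 1 (0.131) or ATRA R679C replicate 1 (0.0639), 2 (0.0533) or 3 (0.0714).

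Znrf3 was the steadiest member with Tcf7, with line means from 27.8 to 30.8 CPM in ATRA and from 25.4 to 32.2 in mESC. The 4 variants in mESC had 30.7 to 33.9 CPM with a median of 31.4, and WT had 30.2, 28.3 and 28.1. All 12 lay above WT, and the log2 fold change was 0.15 ± 0.06 (adjusted p = 0.0377). That call was lost without the low-count filter (0.242) and without any of 10 libraries left out in turn, with adjusted p from 0.0580 without K563E replicate 1 to 0.209 without WT replicate 3. The other 8 were WT replicate 2, replicates 1 and 3 of R679C and K634E, and replicates 1, 2 and 3 of A677T. By edgeR without correction, Znrf3 was called in none of the other comparisons of lines, nor between states in any line. After GC correction it was called higher than WT in mESC of A677T (0.21, adjusted p = 0.0115) and R679C (0.20, 0.0308). With retinoic acid it was then called higher in A733T (0.16, 0.0466) and parental (0.18, 0.0255). The A733T value was also called by DESeq2 (0.0460) and with its size factors (0.0390), and the parental value with those size factors (0.0456).

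**Figure D3:**
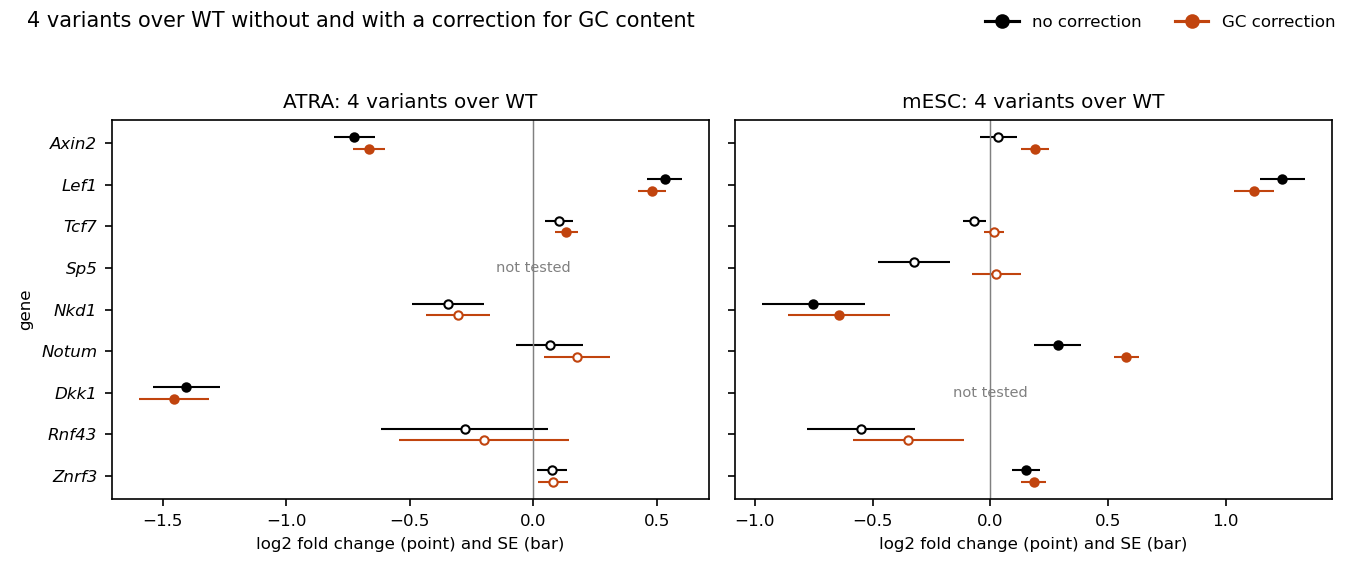
Log2 fold change of the 4 Weaver variants over WT with SE bars for each gene (rows) in ATRA and mESC, without correction (black) and with each library's trend on GC content removed (red); filled points have an adjusted p under 0.05. In ATRA the values of Axin2, Lef1 and Dkk1 move little, whereas in mESC Axin2 moves to 0.19, Sp5 to 0.03 and Notum to 0.58.

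The other genes of the pathway were counted in 6 lists of 86 genes. Beside these counts, 44.4% of all genes were called for the 4 variants over WT in mESC and 20.5% in ATRA, and 19.3% and 17.7% for A733T over WT. In ATRA, of the 10 tested of 15 other Wnt antagonists, 0 were higher and 3 lower in the 4 Weaver variants than in WT, and 5 were higher and 0 lower in A733T than in WT. The median log2 fold change of this list was -0.25 and 0.33 in these comparisons, beside 0.00 and 0.02 over all genes tested. Sfrp1, a secreted Frizzled-like Wnt binder, was at -0.54 ± 0.06 in the 4 variants (adjusted p = 5.52e-08). The others were Sfrp5, of the same family, at -0.59 ± 0.12 (0.000564), and the Dickkopf receptor gene Kremen2 at -0.64 ± 0.20 (0.0244). The Kremen2 call was lost without the filter (0.0684), by DESeq2 (0.0530), after GC correction (0.0591) and without WT replicate 1 (0.0592) or 3 (0.208). In A733T, Sfrp5 was at 0.70 ± 0.14 (0.000918), Kremen2 at 0.76 ± 0.23 (0.0226) and Nkd2 at 0.50 ± 0.14 (0.0121). The Nkd2 call was lost without WT replicate 3 (0.0873) or A733T replicate 1 (0.0704), and that of Kremen2 without the filter (0.0702) and without WT replicate 1 (0.0723) or 2 (0.114) or A733T replicate 2 (0.108) or 3 (0.0659). In mESC, 0 of 8 tested antagonists were higher and 3 lower in the 4 variants (median -0.48), led by Kremen2 at -1.11 ± 0.21 (0.000107), Sfrp4 at -0.70 ± 0.15 (0.000579) and Sfrp1 at -0.45 ± 0.04 (2.35e-09). Sfrp1 alone was called in A733T mESC, at 0.32 ± 0.05 (0.00011).

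Of 10 other genes known to respond to Wnt, all were tested in ATRA, and 4 were higher and 3 lower in the 4 variants than in WT, with a median of 0.03. The caudal homeobox genes fell, with Cdx4 at -0.75 ± 0.17 (adjusted p = 0.00239), Cdx2 at -0.60 ± 0.11 (0.000264) and Cdx1 at -0.56 ± 0.08 (1.82e-05). In A733T 3 were higher and 3 lower, with Cdx2 at 1.66 ± 0.13 (3.27e-10), Ascl2 at 0.75 ± 0.23 (0.0247) and Myc at -0.96 ± 0.06 (2.94e-12). The Ascl2 call was lost without the filter (0.0716), by DESeq2 (0.0536) and without WT replicate 1 (0.0761) or 3 (0.0890) or A733T replicate 2 (0.109) or 3 (0.0832). In mESC 4 of 9 were higher and 2 lower in the 4 variants (median 0.22), with Sp8, a relative of Sp5, at 1.23 ± 0.19 (9.16e-06), Tnfrsf19 at 0.91 ± 0.11 (2.6e-07) and Ascl2 at -1.14 ± 0.16 (2.47e-06). In A733T mESC 0 were higher and 2 lower, Myc at -0.93 ± 0.08 (1.19e-09) and the cyclin gene Ccnd1 at -0.68 ± 0.06 (6.86e-09). In WT over het, 6 of 9 were higher and 0 lower in mESC, where 12.1% of all genes were called in either direction. In ATRA 7 of 10 were higher and 0 lower, where 16.4% of all genes were called.

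Among 11 nuclear effectors and corepressors, 2 were higher and 3 lower in the 4 variants in mESC and 1 higher and 2 lower in ATRA. The share in mESC, 5 of 11, was near that of all genes. Besides Tcf7l2, these included the corepressor gene Tle2 at -0.79 ± 0.22 in mESC (adjusted p = 0.00474) and -0.61 ± 0.15 in ATRA (0.00347), and Pygo1, which encodes a beta-catenin cofactor, at -0.62 ± 0.22 (0.0254) and -0.67 ± 0.11 (8.05e-05). The Tle2 calls were lost without mESC WT replicate 2 (0.0800) and without ATRA WT replicate 2 (0.0798), and the Pygo1 call in mESC without the filter (0.0585) and without WT replicate 3 (-0.34, 0.332). In A733T, 2 were higher and 4 lower in mESC and 3 higher and 3 lower in ATRA. Pygo1 was higher there, at 1.39 ± 0.24 in mESC (0.000167) and 0.78 ± 0.14 in ATRA (0.000195), with Bcl9l at 0.58 ± 0.13 in mESC (0.00253), and Tle2 at 0.79 ± 0.17 (0.00192) and Tle3 at 0.45 ± 0.07 in ATRA (3.86e-05). The 4 variants and A733T share their WT libraries, so values of the same gene in both comparisons are given side by side only.

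For receptors, R-spondins and LGR genes, 3 of 15 tested were higher and 7 lower in the 4 variants in mESC, and 2 of 17 higher and 4 lower in ATRA. Of the destruction complex and Dishevelled genes, 2 of 10 were higher and 5 lower in mESC and 1 higher and 1 lower in ATRA. Of the Wnt ligand and secretion genes, 2 of 11 were higher and 2 lower in mESC and 2 of 15 higher and 4 lower in ATRA. With retinoic acid in WT, where 29.8% of all genes were called higher and 29.2% lower, 12 of 17 receptor genes were higher and 2 lower, 8 of 15 ligand and secretion genes higher and 2 lower, and 6 of 10 antagonists higher and 4 lower. Sfrp5 was at 4.03 ± 0.26 (adjusted p = 2.28e-18) and Dkk3 at 3.01 ± 0.30 (6.51e-12), while Sfrp1 was at -2.26 ± 0.07 (3.72e-31). Of the other responsive genes 6 were higher and 4 lower, and Sp8 was at 5.02 ± 0.14 (5.53e-32), the opposite direction to its relative Sp5. Cdx4 was at 4.84 ± 0.49 (1.48e-11) and Tnfrsf19 at 2.69 ± 0.11 (1.63e-25). Of the nuclear genes 6 were higher and 3 lower, with Pygo1 at 2.10 ± 0.19 (3.69e-13), Pygo2 at -0.94 ± 0.08 (1.29e-13), Tle3 at -0.91 ± 0.07 (2.65e-15), Tcf7l2 at 0.85 ± 0.14 (6.86e-07) and Tcf7l1 at -0.46 ± 0.07 (1.96e-07).

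Genes whose level followed a member most closely over the 24 libraries of a state were found by Pearson correlation of log CPM, among 11598 genes in mESC and 12273 in ATRA. The correlations are descriptive, since libraries of a line share their source. For Lef1 they were Zfp532 (0.95), Nr6a1 (0.95) and N4bp1 (0.93) in mESC and Tfdp2 (0.98), Cnpy1 (0.97) and Skida1 (0.97) in ATRA. For Axin2 in ATRA they were Abcc5 (0.96), Mafa (0.95) and Fbp2 (0.95), whereas in mESC no gene exceeded 0.78. For Notum in mESC they were Trh (0.97), its antisense gene Notumos (0.96) and Gtf2i (0.94), and in ATRA Sall1 (0.92), Plekhg3 (0.91) and Dock1 (0.89). For Dkk1 in ATRA they were Ablim1 (0.96) and the basement membrane genes Lama1 (0.93) and Col4a1 (0.91). For Nkd1 in ATRA they were Vwf (0.92), Camk2b (0.92) and Rab15 (0.92), and for Sp5 in mESC Mkrn1 (0.90), Eif2d (0.88) and Impdh2 (0.88).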

How the data were processed

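RNA was measured by sequencing of polyadenylated RNA in 54 labelled samples, of which 48 libraries in 16 groups of 3 are used. A further 6 columns of the table matched no label and were not used, and the Y728 line is not analysed here. The table deposited by the authors holds raw counts per gene. The tools named in the submitters' processing notes are STAR 2.7.3a, cutadapt 3.2, DESeq2 1.38.3 and featureCounts 1.6.4, with mm10 as the build; no source used here states the strand use, the annotation release or how reads with several matches were counted. Names were taken from GENCODE M21, which held 55141 of the 55401 IDs. Totals were 15361598 to 31338825 counts per library, and counting error is largest for Rnf43, for Sp5 in ATRA and for Dkk1 in mESC.

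Counts were filtered with filterByExpr, scaled by TMM and tested with edgeR 4.0.16 in R 4.3.3 (robust quasi-likelihood test, Benjamini-Hochberg over all genes tested, threshold 0.05), with 1 fit per state for lines and 1 over all 48 libraries for states and interactions. CPM use TMM factors over all 48 libraries, and TPM use GENCODE exon lengths. Fold changes carry SE and levels SD. The test was tried on simulated counts with known changes: for the 4 variants over WT in mESC it recovered 60% of genes changed 1.5-fold and 87% of those changed 2-fold, with 8 false calls among 15514 genes. In ATRA it recovered 68% and 85%, with 16 false calls among 16711 genes. The simulated counts held 100 changed genes at each fold and neither a GC trend nor a replicate effect, so these rates may not hold for the real libraries. Alternatives were DESeq2 1.42.0 and its size factors, no low-count filter, a GC correction (lowess trend per library, span 0.3), a replicate block, and each library left out. The block fitted an effect of replicate number shared by all groups of a fit, so it did not pair single groups. Same-numbered libraries deviated together (every correlation over 0.1) in 3 of 22 pairs of groups, namely A733T with WT and R679C with WT in ATRA and parental between states; there the blocked value is given where it changed a call, and elsewhere the numbers were not taken as pairs. All 9 members are named; from the lists of nuclear effectors, antagonists and responsive genes the 3 largest called changes with at least 1 CPM are named per comparison. The members and lists were chosen with earlier results of these data known.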

Additional observations from a re-analysis of the deposited data

Results flagged for a closer look

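Effects that differed between states or between variants, by a test of the difference itself, are collected here. For the mean of the 4 Weaver variants over WT, the effect in ATRA minus that in mESC was -0.73 for Axin2 and -0.68 for Lef1 on the log2 scale. By their values over WT in each state, R679C, K634E and K563E followed the direction of the Lef1 value and A677T went the other way. This was not tested for single Weaver variants. All 12 variant libraries were below WT for Axin2 in ATRA while the groups overlapped in mESC. For WT over het it was -0.70 for Lef1 and -0.75 for Notum, and both calls depend on single libraries, as given above. Between A677T and the mean of the other 3 Weaver variants, Lef1 differed by -1.85 and Tcf7 by 0.19 in mESC, and Lef1 by -0.25, Nkd1 by -0.62 and Notum by 0.88 in ATRA. The Tcf7 call was lost without the low-count filter (adjusted p = 0.140) and without A677T replicate 1 (0.0795) or 2 (0.0522), and the Lef1 call in ATRA without A677T replicate 2 (-0.17, adjusted p = 0.219). The comparison of A677T with the others was added after the Lef1 values were seen.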

How the results depend on the processing

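Of 103 called member values, 0 lost their call with a replicate block, 1 with DESeq2 size factors, 3 with DESeq2, 4 with GC correction, 4 with GC correction and replicate block together and 7 without the low-count filter, and none turned; 19 lost it without at least 1 library. Counts of members called moved as follows, with the number of all genes called at that setting in brackets. WT over het in mESC went from 1 (1909) to 2 without the filter (1756). It gave 3 with GC correction (3112) and 4 with both corrections (3431). Het over parental in mESC went from 0 (544) to 2 without the filter (544), 1 with DESeq2 (570) and 1 with the replicate block (604). It gave 2 with GC correction (981) and 3 with both (1117). The 4 variants over WT in ATRA went from 3 (3497) to 5 with both (4876). The interaction of A733T over WT went from 0 (560) to 1 without the filter (580), 1 with DESeq2 (741) and 2 with the replicate block (809). It gave 3 with GC correction (906) and 3 with both (1161). That of het over parental went from 0 (129) to 1, 0, 1, 2 and 2 at these settings (131, 184, 179, 262 and 327). Over WT in mESC, A677T went from 2 (7061) to 6 with GC correction (5969) and with both (6249). R679C went from 1 (3751) to 2 without the filter (3501) and with the block (4035). It gave 3 with GC correction (3557) and with both (3828). A677T over the other 3 variants in ATRA went from 3 (2133) to 5 with the block (2804), with GC correction (3124) and with both (3493). With each library left out, counts ranged from 2 to 5 for the 4 variants over WT in mESC, 3 to 4 in ATRA, 2 to 3 for A733T over WT in ATRA, 6 to 8 for ATRA over mESC in WT, 2 to 3 for the interaction of the 4 variants, 0 to 1 for that of A733T and 0 to 2 for that of WT over het. They were 2 throughout for A733T over WT in mESC and for het over parental in ATRA, 1 for WT over het in mESC, 0 for het over parental in mESC and for its interaction, and 3 for WT over het in ATRA, where Sp5 then passed the filter. The number of all genes called was not recorded for the fits with a library left out, so these ranges have no background. Among uncalled values for the 4 variants over WT in mESC, Axin2 lay between -0.0139 and 0.0614 with each library left out, and Sp5 turned to 0.0262 with GC correction and 0.0244 with both. Tcf7l1 turned to 0.23 with either. Lef1 for WT over het in ATRA lay between -0.015 and 0.10 with each library left out. The cause was not tested. Where same-numbered libraries deviated together, the block changed the calls of Nkd1 in A733T over WT in ATRA and of Axin2 and Tcf7 between states in parental, and no other member's call; elsewhere the numbers are no pairs, and a call changed by the block is no measure of effect size. Low counts limit Rnf43, Nkd1 in mESC, Sp5 in ATRA and Dkk1 in mESC.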
